A study of Mus musculus with 6 samples.

Results

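The messenger RNA of 9 keratin genes (Krt7, Krt8, Krt14, Krt18, Krt19, Krt20, Krt23, Krt36 and Krt84) was followed in colonic crypts of untreated mice, of mice on dextran sulfate sodium (DSS) and of adenomas. The members were all probe sets that the platform annotation assigns to 1 of these symbols alone, which gave 13 probe sets of 20380 with a single symbol, and 9 genes of 12393. The 9 genes were chosen with their values on these arrays known, so their levels and changes are given as descriptions. Crypts, the tubular glands of the colonic epithelium, were profiled on 6 Affymetrix arrays in 3 groups of 2, and the labels call the arrays of a group independent biological replicates. All mice were males that carry 1 copy of the Lgr5-lacZ allele (labelled het), a reporter at the locus of the stem cell receptor Lgr5. Control crypts came from pooled distal colons of 2 untreated mice per array, aged 6 to 8 weeks. DSS crypts came from pooled distal colons of 2 mice of that age on day 2 of 1% DSS in drinking water, a polysaccharide that injures the colonic epithelium. Tumor crypts came from 12 pooled adenomas per array, from 2 mice that had been injected at 6 to 8 weeks of age with the carcinogen azoxymethane (AOM) at 12.5 mg per kg. They then had cycles of 2%, 1.5% and 1.0% DSS, and their age label is 90 days after AOM. Age, carcinogen, repeated DSS and the adenoma itself therefore cannot be told apart in any tumor comparison. Pooled animals give no spread between single mice.

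Keratins are the intermediate filament proteins of epithelial cells. Each filament is built from pairs of 1 type I and 1 type II chain. In simple epithelia such as the colon, Krt8 is the main type II chain and pairs with the type I chains Krt18, Krt19 and Krt20, and the filaments carry mechanical load, anchor at desmosomes and take part in the response to stress. Krt7 is a second type II chain of simple and ductal epithelia. Krt20 marks differentiated cells near the crypt mouth. Krt23 is a divergent type I chain. Krt14 belongs to the basal layer of squamous epithelium, while Krt36 (type I) and Krt84 (type II) are counted among the hair keratins, which also occur in tongue and nail.

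RefSeq promoter windows (GRCm38.p6, 250 bases before to 50 bases after the annotated start) were found for 8 of the 9 genes, Krt19 being the other. The windows below are those of the 4 keratins with the largest tumor changes and, as a contrast, of Krt20, which was lower in DSS crypts. They are printed from 5′ to 3′ on the gene's strand, and capitals mark every match to one of 5 motifs searched on both strands. The AP-1 motif was searched as TGANTCA. The motif of TCF and LEF factors was CTTTGA. The TATA box was searched as TATAAA. The motif of Sp1 and KLF factors (Sp1/KLF) was GGGCGG. The AP-2 motif was GCCNNNGGC, which may overlap the Sp1/KLF motif.
Krt36, chr11:100105577-100105876, minus strand: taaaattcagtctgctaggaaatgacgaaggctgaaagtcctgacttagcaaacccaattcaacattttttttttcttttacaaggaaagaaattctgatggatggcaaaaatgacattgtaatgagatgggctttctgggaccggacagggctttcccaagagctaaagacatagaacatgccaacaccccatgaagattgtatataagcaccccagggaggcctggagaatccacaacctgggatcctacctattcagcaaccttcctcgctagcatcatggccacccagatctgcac
Krt23, chr11:99493071-99493370, minus strand: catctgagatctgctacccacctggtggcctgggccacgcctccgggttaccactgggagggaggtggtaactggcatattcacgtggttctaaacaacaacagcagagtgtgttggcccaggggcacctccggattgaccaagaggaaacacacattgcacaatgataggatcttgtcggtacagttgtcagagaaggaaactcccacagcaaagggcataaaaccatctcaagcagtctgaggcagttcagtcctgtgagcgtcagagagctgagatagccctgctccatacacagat
Krt14, chr11:100205981-100206280, minus strand: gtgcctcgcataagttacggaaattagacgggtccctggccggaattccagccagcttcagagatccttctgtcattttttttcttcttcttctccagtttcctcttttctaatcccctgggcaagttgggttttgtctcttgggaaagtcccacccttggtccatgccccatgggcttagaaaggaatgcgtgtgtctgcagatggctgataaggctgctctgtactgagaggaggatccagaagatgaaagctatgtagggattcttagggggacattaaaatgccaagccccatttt
Krt7, chr15:101412153-101412452, plus strand: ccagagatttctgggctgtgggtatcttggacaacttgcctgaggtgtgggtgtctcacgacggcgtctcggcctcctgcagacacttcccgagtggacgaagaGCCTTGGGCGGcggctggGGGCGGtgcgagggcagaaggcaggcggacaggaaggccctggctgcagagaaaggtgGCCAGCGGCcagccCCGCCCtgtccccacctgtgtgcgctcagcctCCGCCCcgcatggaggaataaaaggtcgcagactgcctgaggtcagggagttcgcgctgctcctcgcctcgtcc
Krt20, chr11:99438104-99438403, minus strand: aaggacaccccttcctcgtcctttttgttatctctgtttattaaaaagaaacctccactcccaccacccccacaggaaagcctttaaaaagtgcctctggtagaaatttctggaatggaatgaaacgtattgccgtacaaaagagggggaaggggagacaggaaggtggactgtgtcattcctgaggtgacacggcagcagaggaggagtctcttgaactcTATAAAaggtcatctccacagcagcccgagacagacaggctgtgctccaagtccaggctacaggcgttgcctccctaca
The Krt7 window held 4 Sp1/KLF and 2 AP-2 matches, the Krt20 window held 1 TATA match 29 bases before the start, and those of Krt36, Krt23 and Krt14 held no match to any of the 5. Over the 8 windows, AP-1 and TCF/LEF letters were in 0 and 0, against 7.81% and 16.0% of all 32851 windows in the RefSeq table. TATA letters were in 3 of 8 against 13.6% of all, Sp1/KLF in 1 against 35.7% and AP-2 in 2 against 16.6%. The G and C content was 66.3% in the Krt7 window and 44.7% in the Krt36 window. These matches are a description of the letters in the windows.

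Values are MAS5 signal intensities, the authors' summary of each probe set on a linear scale, and brightness cannot be set against that of another probe set. Array medians lay between 94.2 and 131 and are the line between dim and bright used here. Actin control probes, which read RNA integrity as the log2 excess of 3′ over 5′ signal, gave 0.95 and 1.04 in tumor crypts against 1.20 to 1.63 elsewhere. The part of this difference in the tumor results was not tested. Pan-epithelial genes all passed the filter (14 of 14), and the adhesion gene Epcam had intensities of 12936 and 12682 in control, 14732 and 12534 in DSS and 12781 and 11358 in tumor crypts. Epcam was bright in each group, and the groups overlapped. Summed intensities of leukocyte genes were 729.6 to 1578 on control, 522 to 1744 on DSS and 4427 to 19913 on tumor arrays. Such a sum adds the brightest probe set of each listed gene on the array, so its brightest genes weigh most. It is compared between arrays only. In RNA from a mixture, fewer cells of a type and less RNA per cell cannot be told apart. Changes are differences of log2(intensity + 17.8) between group means with the standard error (SE) of a limma fit of 7456 genes, and a gene is called at a Benjamini-Hochberg adjusted p under 0.05.

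**Figure D1:**
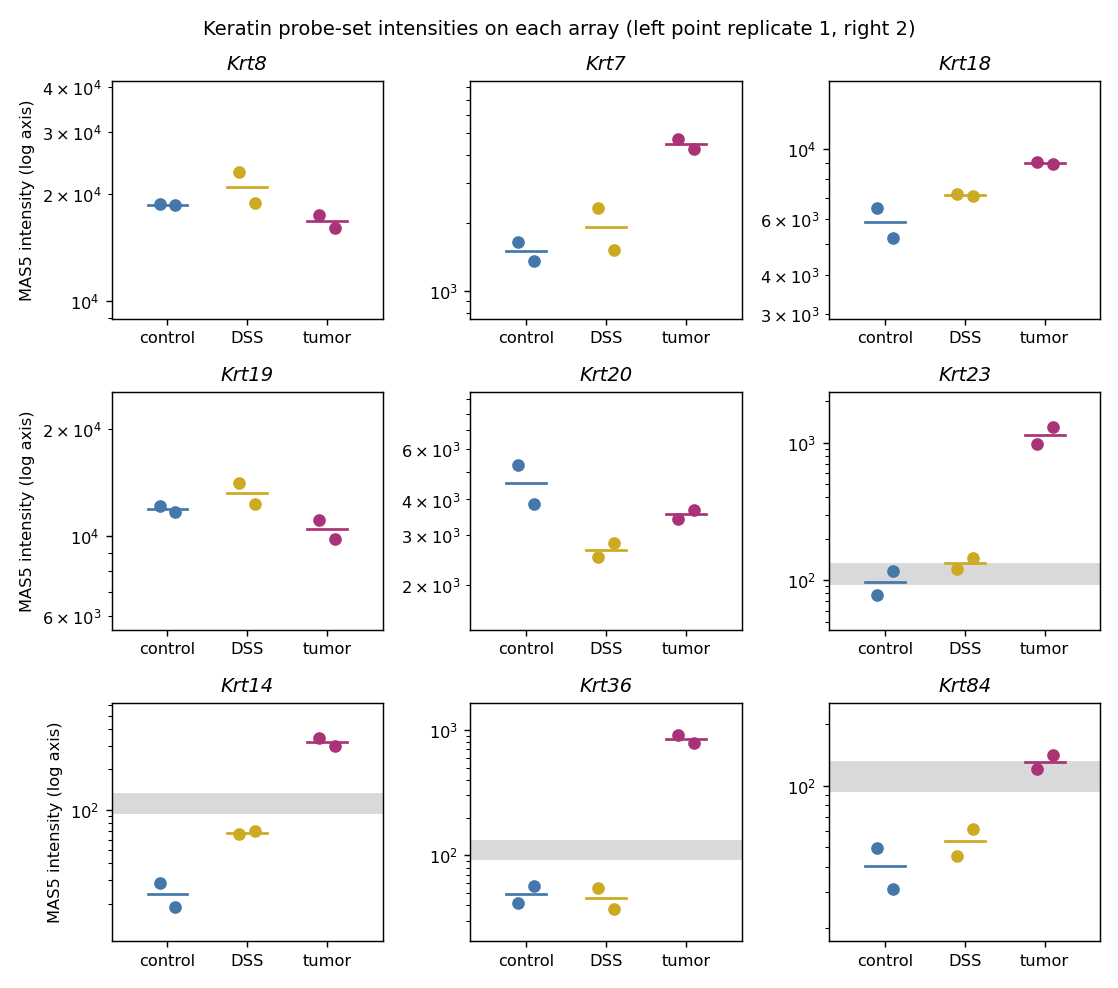
MAS5 intensity (log axis, a separate range in each panel) of the tested probe set of each keratin on the 6 arrays; points are arrays, lines are group means and the grey band spans the array medians of 94.2 to 131. Krt7, Krt18, Krt23, Krt14, Krt36 and Krt84 sit higher on both tumor arrays than on the other 4, while Krt20 is lowest on the DSS arrays.

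The simple epithelial pair differed between its chains in tumor crypts. Krt8, the type II chain, was bright on all arrays, with intensities of 18723 and 18697 in control, 23130.5 and 18915 in DSS and 17516 and 16090.0 in tumor crypts. Both tumor values lay below both control values, by a log2 change of -0.16 ± 0.15 that was not called. Quantile normalization gave 0.01, so this direction depends on the scaling. The other 2 Krt8 probe sets gave similar values, with tumor changes of -0.15 and -0.12 and DSS changes of 0.20 and 0.18, against 0.16 on the tested one. The highest intensity of any probe set was 19702 to 27321 on the arrays, so Krt8 lies near the top of the scale, and whether the signal is linear there was not tested.

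Krt18, the type I partner that forms the first epithelial filaments with Krt8, had intensities of 6485 and 5232 in control, 7210.3 and 7069.7 in DSS and 9084 and 8958 in tumor crypts. The 3 groups did not overlap. The tumor change was 0.63 ± 0.15 and was called, while the DSS change of 0.29 ± 0.15 was not. With each array centred on its median, the tumor change was 0.38 and no longer called, and the call also ended without control replicate 2 (0.47), tumor replicate 1 (0.62) or tumor replicate 2 (0.64), and with the replicate block in a fit of the 2 groups alone (0.63). Taken within each array and relative to the control mean, the log2 ratio of Krt18 to Krt8 was 0.15 and -0.15 on the control, 0.00 and 0.26 on the DSS and 0.73 and 0.84 on the tumor arrays. A ratio within an array does not depend on a common factor for all values of that array, but quantile normalization can change it. The ratio of Krt18 to Krt8 rests on the bright Krt8 probe set, whose linearity was not tested.

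Krt19, a small type I chain without a tail domain, had intensities of 12207 and 11735.5 in control, 14079 and 12338 in DSS and 11083 and 9864 in tumor crypts. Tumor values lay below and DSS values above those of the controls, by -0.19 ± 0.14 and 0.14 ± 0.14, and neither was called. The tumor value was -0.01 with quantile normalization and -0.44 with median centring. Relative to Krt8 within each array, Krt19 lay between -0.07 and 0.03 on all 6 arrays, and the groups overlapped.

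Krt7, the second type II chain, was higher in tumor crypts. Intensities were 1639 and 1356 in control, 2328 and 1518 in DSS and 4717 and 4234 in tumor crypts. Both tumor arrays were above every other array, while control and DSS overlapped. The mean was 1497 ± 200.1 (SD, n = 2) in control and 4476 ± 342 (SD, n = 2) in tumor crypts, a log2 change of 1.57 ± 0.22, called in each of the 18 alternatives run with values from 1.32 to 1.71. Relative to Krt8 within an array, Krt7 was at 1.75 and 1.71 on the tumor arrays and between -0.13 and 0.33 on the other 4. The DSS change was 0.33 ± 0.22, not called, and was 0.03 without DSS replicate 1 and 0.64 without DSS replicate 2.

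Krt20, the keratin of differentiated colonocytes, was lower in DSS crypts and closer to control in tumor crypts. Intensities were 5294 and 3855 in control, 2510.2 and 2820.2 in DSS and 3428 and 3667 in tumor crypts. The DSS values lay below all others, and the tumor values lay below both controls. The DSS change was -0.76 ± 0.19 and the tumor change -0.35 ± 0.19, and neither was called. Between arrays of the same number the DSS change was -1.07 for number 1 and -0.45 for number 2. The tumor value moved to -0.12 without control replicate 1 and to -0.58 without control replicate 2, so the control array used decides its size.

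Krt23, a type I keratin, was much brighter on the tumor arrays. Intensities were 78.3 and 116 in control, 119.8 and 146 in DSS and 982 and 1297 in tumor crypts. Control and DSS values lay near the array medians, and both tumor values lay far above them. The tumor change was 3.34 ± 0.24, with 3.38 and 3.29 between arrays of the same number, and it was called in each of the 18 alternatives (2.60 to 3.58). The DSS change of 0.40 ± 0.24 was not called, although both DSS values lay above both controls, and it was 0.16 without control replicate 1 and 0.64 without control replicate 2.

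Krt14, the basal squamous keratin, was dim in control and brighter in tumor crypts on both informative probe sets. The tested one had intensities of 28.6 and 19.1 in control, 65.5 and 69.7 in DSS and 343 and 297 in tumor crypts, so the 3 groups followed each other without overlap. Its tumor change was 3.03 ± 0.28 and called. Its DSS change was 1.05 ± 0.28 and not called. Both depend on how near-background signal is treated: with a pseudocount at the median of all values they were 1.70 and 0.42. The tested probe set carries the _x_at suffix, by which Affymetrix marks probes that can match other transcripts. The _at probe set gave 18.4 and 20.9 in control, 44.7 and 29.3 in DSS and 178 and 179 in tumor crypts, with changes of 0.54 (DSS) and 2.39 (tumor). The remaining one stayed below every array median, at 1.15 to 22.1, as did a probe set shared by Krt14 and Krt17, at 2.26 to 32.0.

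Krt36, a hair-type chain, was below the array median on every control and DSS array and far above it on both tumor arrays. Intensities were 41.6 and 56.7 in control, 54.8 and 37.6 in DSS and 902 and 780.4 in tumor crypts. Control and DSS overlapped, and both tumor arrays stood far above them. The tumor change was 3.69 ± 0.26. Without tumor replicate 1 or tumor replicate 2 the gene failed the filter, so it was tested only where both tumor arrays were in. The change was called in each of the 16 alternatives in which the gene was tested, with values from 2.60 to 4.08. In these it was the largest tumor change of the 9, except with a pseudocount at the median of all values, where Krt23 was as large (2.60). The DSS change was -0.07 ± 0.26, and its sign changed with the array left out (-0.26 to 0.13).

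Krt84, a hair-type type II chain, was above the array median on the tumor arrays alone. Intensities were 49.4 and 31.0 in control, 45.2 and 61.4 in DSS and 121 and 141 in tumor crypts. The tumor values just exceeded their array medians of 112 and 131. The tumor change was 1.38 ± 0.33 and called. It was 0.69 with a pseudocount at the median of all values, and the call ended without control replicate 2 (1.14).

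In tumor against control crypts, limma called 6 of 9 keratins higher (Krt7, Krt14, Krt18, Krt23, Krt36 and Krt84) and 0 lower. Over all genes tested, 22.5% were called, 12.8% higher and 9.74% lower. Since the genes were chosen with this comparison known, nothing is read from that count. The groups did not overlap for any of the 9, with 6 higher and 3 lower, against 33.8% and 27.7% of all genes. The median log2 change was 1.38 over the 9 and 0.05 over all genes. Krt14, Krt36 and Krt84 passed the filter on dim probe sets only through the tumor arrays, so they had to differ to be tested. Without tumor replicate 1, and likewise without tumor replicate 2, these 3 no longer passed the filter, Krt18 lost its call and 2 of the 9 were called (Krt7 and Krt23). Centring each array on its median moved the median of all genes to -0.20 in this comparison, and the changes of Krt36, Krt23, Krt14 and Krt7 were then 3.44, 3.09, 2.78 and 1.32.

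In DSS against control crypts, limma called 0 of 9 keratins, as it called 0% of all 7456 genes, of which 189 had an unadjusted p under 0.05. Values did not overlap for 6 of the 9. Krt8, Krt14, Krt18, Krt19 and Krt23 were higher and Krt20 lower, against 12.8% of all genes higher and 13.7% lower without overlap. For Krt8 the nearest values on the tested probe set were 18915 in DSS and 18723 in control crypts, and another Krt8 probe set overlapped. Krt7, Krt36 and Krt84 overlapped. The genes were chosen with this comparison known too, so nothing is read from the count without overlap. The median log2 change over the 9 was 0.29 and that over all genes 0.00. In tumor against DSS crypts, 5 keratins were called higher and 0 lower, beside 14.8% and 11.3% of all genes (26.2% in all). The groups did not overlap for any of the 9, with 7 higher and 2 lower, against 35.3% and 30.7% of all genes. The tested probe sets of Krt14, Krt36 and Krt84 exceeded the array median on both tumor arrays and on no control or DSS array. For these, a brighter signal in tumor than in DSS crypts was therefore a condition of being tested. The 9 were picked with this comparison in view as well, so nothing is read from either count. The keratins called were Krt36 at 3.76 ± 0.26, Krt23 at 2.93 ± 0.24, Krt14 at 1.98 ± 0.28, Krt7 at 1.24 ± 0.22 and Krt84 at 1.07 ± 0.33. The Krt84 call ended with quantile normalization (0.84), median centring (0.84), a pseudocount of 1 (1.29) and no filter (1.07), and without DSS replicate 1 (0.91) or 2 (1.24). Krt18, at 0.34 ± 0.15, was not called but was with quantile normalization (0.56). With the 75th percentile filter, which left Krt14 and Krt84 out, 3 were called. The comparisons share arrays, so their values are set side by side only.

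**Figure D2:**
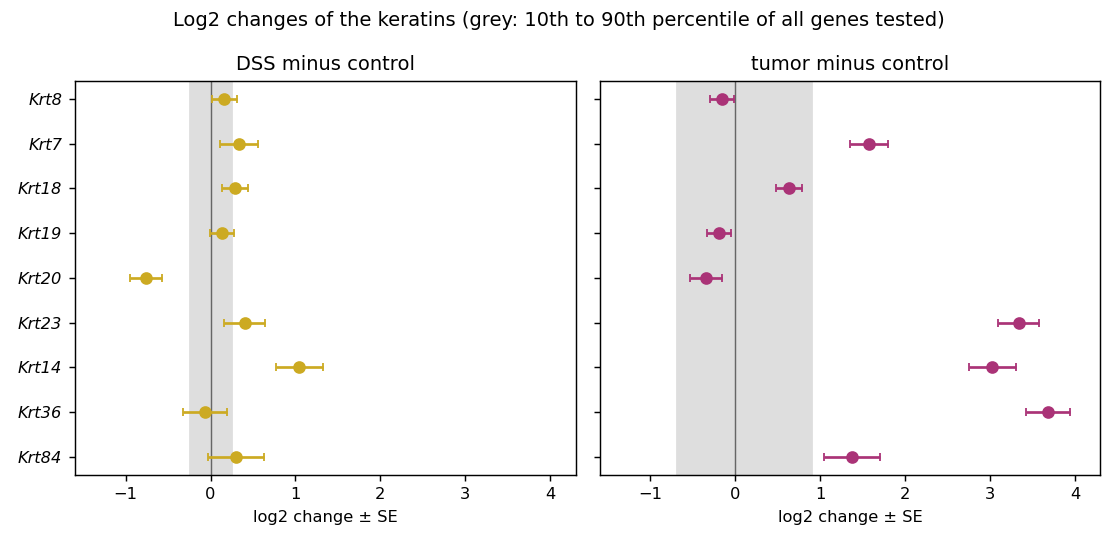
Log2 change with its SE for the 9 keratins in DSS minus control (left) and tumor minus control (right), from the limma fit; the grey band is the 10th to 90th percentile of all 7456 genes, -0.24 to 0.25 on the left and -0.69 to 0.90 on the right. Krt23, Krt14, Krt36, Krt7 and Krt84 lie beyond the band in tumor crypts, while in DSS crypts Krt14 (1.05), Krt23 (0.40), Krt7 (0.33), Krt84 (0.30) and Krt18 (0.29) lie above it and Krt20 (-0.76) below.

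The rest of the keratin family was mostly dim. Of 31 other keratin genes with a probe set of their own, 2 passed the filter. Krt10, a suprabasal epidermal chain that is also found in other tissues, had intensities of 277 and 342 in control, 302 and 298 in DSS and 240.2 and 207 in tumor crypts (tumor change -0.43 ± 0.20, adjusted p = 0.150). Krt88, outside the list of other keratins and chosen after its values were seen, had 132 and 165 in control, 80.4 and 154 in DSS and 113 and 79.5 in tumor crypts. Another 3 exceeded the median of a single array, and 26 exceeded none. On their brightest probe sets these 3 were higher on both tumor arrays than on the other 4, and they were not tested. Krt13, a mucosal squamous chain, had 3.11 and 3.38 in control, 3.09 and 16.8 in DSS and 99.0 and 170 in tumor crypts. Krt15, a basal squamous chain, had 573 on tumor replicate 1 and 44.3 on tumor replicate 2, against 2.22 to 11.3 elsewhere, so 1 array sets its mean. Krt6a, a keratin of wounded and proliferating squamous epithelium, had 65.9 and 159 in tumor crypts and 12.3 to 34.9 elsewhere on its brightest probe set. Krt5, the usual type II partner of Krt14, had 29.0 and 30.3 in control, 16.4 and 60.5 in DSS and 37.9 and 89.6 in tumor crypts, below the array median on each array. The summed intensity of the list of other keratins was 643 to 852 on control, 670.2 to 779.7 on DSS and 1262 to 1523 on tumor arrays.

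In the mouse genome the type I genes lie together on chromosome 11 and the type II genes on chromosome 15, with the type I gene Krt18 beside Krt8 at the end of the type II cluster. Neighbours did not share their changes throughout. Krt20 and Krt23 are adjacent keratins, with tumor changes of -0.35 and 3.34, and Krt8 and Krt18 are adjacent, with -0.16 and 0.63. Along chromosome 11, Krt35, Krt36, Krt13 and Krt15 follow one another with tumor values of 1.92, 3.69, 2.82 and 3.22, and are followed by Krt19 at -0.19. Of these, Krt35, Krt13 and Krt15 did not pass the filter, and their values rest on near-background control signal.

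**Figure D3:**
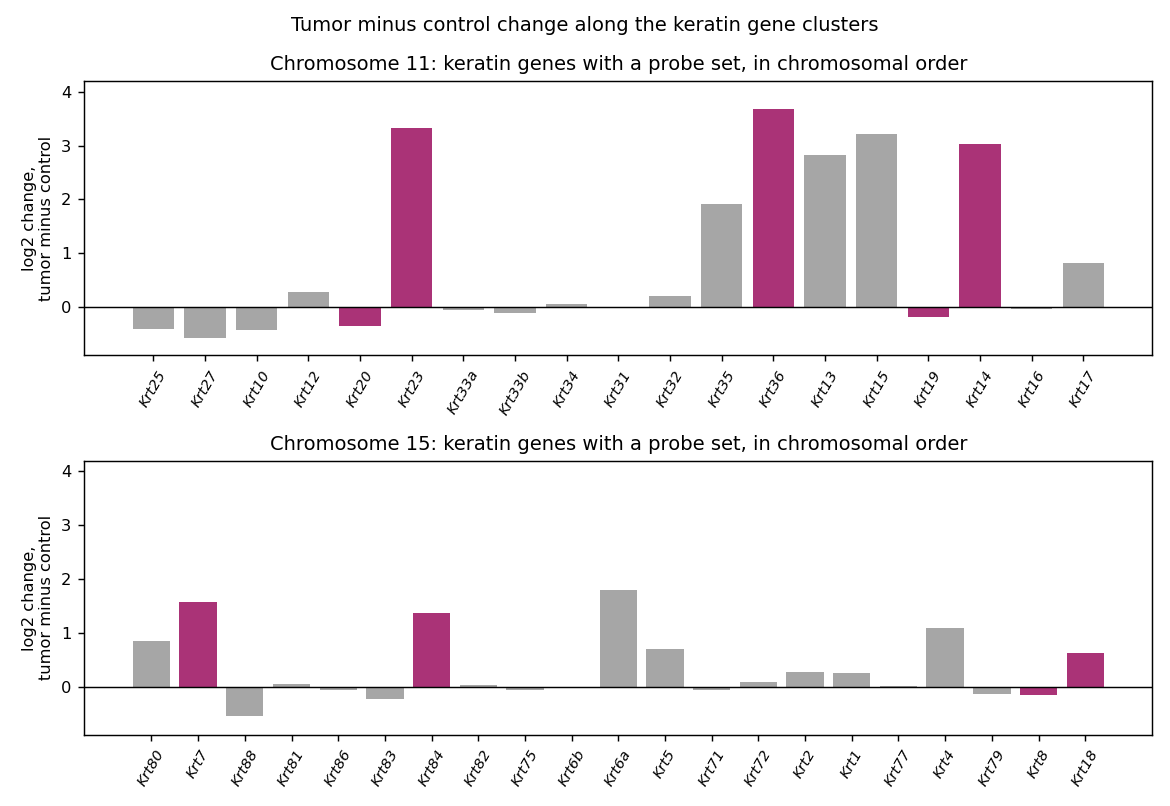
Tumor minus control log2 change (bars, from log2 of intensity + 17.8) of each keratin gene with a probe set of its own, in order along chromosomes 11 and 15, with the 9 described keratins in purple and the others in grey; the brightest probe set is drawn and genes with no probe set are left out. High bars stand next to bars near or below 0, as for Krt23 at 3.34 beside Krt20 at -0.35.

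Genes whose profile over the 6 arrays was most like that of each keratin with a change over 1 were found by the root mean square difference (RMSD) of log2 values relative to the control mean. For Krt7 the nearest was Rac3 (RMSD 0.14), followed by Avpi1 and Slc25a45. Krt23 was nearest to the protocadherin Pcdhb9 (0.18), the secreted chaperone Clu (0.20) and the endocytic receptor Cubn (0.21), whose tumor changes were 3.57, 3.41 and 3.27. Krt36 was nearest to the Bcl-2 family gene Bcl2l15 (0.25), Fam89a and the lipoxygenase Alox15. Krt14 had its nearest genes farther away, with the metalloreductase Steap4 at 0.39, the transcription factor Gata5 at 0.39 and the kinase Mark1 at 0.40. Krt84 was nearest to Zfand5 (0.09), Sh3bp2 and Arid5b. These are likenesses over 6 arrays that the tumor step dominates.

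Krt20 was set beside other genes of mature colonocytes, the absorptive cells of the upper crypt. In tumor crypts 9 of the 13 tested fell and 0 rose, against 9.74% and 12.8% of all genes. The median log2 change was -2.08 against 0.05 over all genes. The water channel Aqp8 fell by 4.90 ± 0.36 on the log2 scale (limma, adjusted p = 0.000123), the anion exchanger Slc26a3 by 4.06 ± 0.35, the carbonic anhydrase Car4 by 5.17 ± 0.51 and the brush border protease Mep1a by 2.64 ± 0.23. Krt20, at -0.35, was thus among the colonocyte genes with small tumor changes, as were Guca2b (-0.04) and Lypd8 (-0.21), both chosen after their values were seen. In DSS crypts 0 of the 13 passed, and the median was -0.21. The smallest p-values belonged to the sodium channel subunit Scnn1g at -1.50 ± 0.29 (adjusted p = 0.573) and to Tmigd1 at -1.79 ± 0.40 (adjusted p = 0.857). Between DSS and tumor crypts 8 of the 13 fell and 1 rose, against 11.3% and 14.8% of all genes, with a median of -1.77. The 1 that rose was Emp1, chosen after its values were seen, by 2.35 ± 0.36 (limma, adjusted p = 0.00266). Against control, Emp1 had -1.44 in DSS and 0.91 in tumor crypts.

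**Figure D4:**
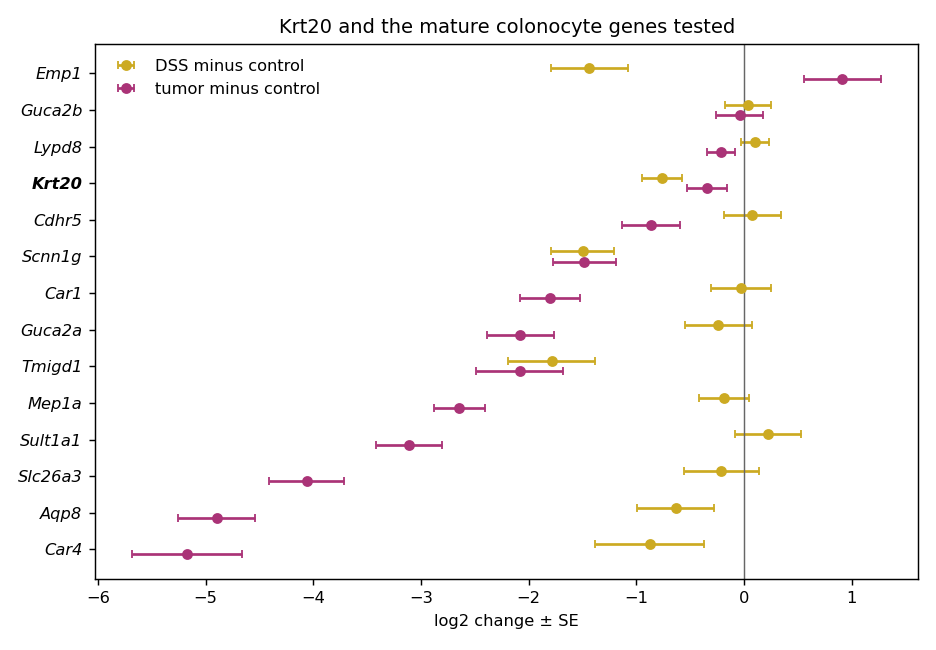
Log2 change with its SE for Krt20 (bold) and the 13 mature colonocyte genes tested, in DSS minus control and tumor minus control crypts, ordered by the tumor change. Krt20 lies at -0.76 in DSS and -0.35 in tumor crypts, while Aqp8, Car4 and Slc26a3 lie between -5.17 and -4.06 in tumor crypts.

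Among the proteins that anchor keratin filaments, 17 desmosome and plakin genes were tested. In tumor crypts 3 rose and 1 fell, a share near the 22.5% called over all genes, with a median of 0.21. The plakophilin Pkp1, which links desmosomal cadherins to plakin, rose by 1.03 ± 0.24 (adjusted p = 0.018), the integrin subunit Itga6 by 0.80 ± 0.20 and the plakin Ppl by 0.92 ± 0.25. The linker Dst fell by 1.55 ± 0.21 (adjusted p = 0.00178). With median centring 0 rose and 4 fell, and 0 rose without control replicate 2 or without tumor replicate 2. The Ppl call also ended in 8 of 15 alternatives (0.56 to 1.05 over all 15). Desmoplakin, Dsp, the linker of keratins to desmosomes, had a tumor change of 0.10 and plakoglobin, Jup, of 0.21; Dsp was chosen after its values were seen. In DSS crypts 0 passed, and Jup at -0.51 ± 0.28 and Dst at 0.37 ± 0.21 had the smallest p-values. Between DSS and tumor crypts 4 rose (Pkp1, Itga6, Ppl and Pkp4) and 2 fell (Dst by 1.91 and Eppk1 by 1.43). Of all genes, 14.8% rose and 11.3% fell in that comparison. The calls of Eppk1 and Ppl there each ended in 8 alternatives, that of Pkp4 in 5, that of Itga6 in 4 and that of Pkp1 in 1.

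Among 13 proteins known to act on keratins, 3 rose and 2 fell in tumor crypts, against 12.8% and 9.74% of all genes. The median was 0.26. The small heat shock protein Hspb1 rose by 2.45 ± 0.35 (adjusted p = 0.00247), the transglutaminase Tgm2 by 2.81 ± 0.48 and the caspase Casp6, which cleaves Krt18, by 1.37 ± 0.17. The adaptor Tradd fell by 0.87 ± 0.17 and the kinase Prkce by 0.94 ± 0.25. The tumor against control call of Tradd ended without tumor replicate 2 (-0.83), and that of Prkce without the filter (-0.94), with the 2 compared groups alone (-0.94) and without control replicate 1 (-0.91), control replicate 2 (-0.96), DSS replicate 1 (-0.94), DSS replicate 2 (-0.94) or tumor replicate 1 (-0.65). The same genes passed in tumor against DSS crypts, and 0 passed in DSS against control. Among other intermediate filament genes 5 of the 13 on the array were tested. In tumor against control crypts 2 rose and 1 fell, against 12.8% and 9.74% of all genes. Vim, the filament of mesenchymal cells and leukocytes, rose by 3.25 ± 0.52 and the lamin Lmnb1 by 0.96 ± 0.27, while the lens filament gene Bfsp1 fell by 0.99 ± 0.27. The Lmnb1 call ended with median centring (0.71), without the filter (0.96) and without control replicate 2 (0.64) or tumor replicate 2 (0.81). The Bfsp1 call ended without any 1 of the 6 arrays (-0.98 without tumor replicate 2), without the filter (-0.99) and with the 2 compared groups alone (-0.99).

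Pan-epithelial genes had 1 rise and 2 falls among 14 in tumor crypts (median -0.17), against 12.8% and 9.74% of all genes. The tight junction gene Cldn4 rose by 3.58 ± 0.21 (adjusted p = 5.78e-05), and the transcription factors Cdx1 and Hnf4a fell by 0.80 ± 0.20 and 0.74 ± 0.22. The Cdx1 call ended without control replicate 1 (-0.56), tumor replicate 1 (-0.83) or tumor replicate 2 (-0.78), and the Hnf4a call in 9 of 18 alternatives (as small as -0.47 without control replicate 1).

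Markers of tissues in which Krt14, Krt36, Krt84 and Krt7 are usual were read on the same arrays. Of 16 squamous genes on the array 5 were tested, and 3 rose and 1 fell in tumor crypts, against 12.8% and 9.74% of all genes. Genes dim on control and DSS arrays are tested only if bright on both tumor arrays, so this count partly reflects the filter. Ly6d, a surface protein of keratinocytes and B cells, had control intensities of 20.4 and 51.2 and tumor intensities of 1109 and 1881, and it rose by 4.83 ± 0.36. Anxa8 rose by 1.30 ± 0.23, and Sprr1a, a cornified envelope gene, by 1.98 ± 0.48, a call that ended without control replicate 2 (1.68). The epidermal transglutaminase Tgm3 fell by 3.35 ± 0.20. Without either tumor array 1 squamous gene rose. Trp63, the defining factor of squamous basal cells, was below the array median on all arrays and all 3 probe sets, at 0.91 to 30.1. Ivl, Lor, Flg, Tgm1, Krtdap, Lypd3, Col17a1, Calml3, Sprr1b and Sprr3 did not pass the filter. Summed squamous intensity was 2314 to 2687 on control, 2086 to 2497 on DSS and 5116 to 5855 on tumor arrays.

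For hair and nail 13 genes were on the array and 0 passed the filter. Hoxc13 and Foxn1, regulators of hair keratins, were at 1.49 to 23.1. Msx1, chosen after its values were seen, had 151 and 118 in tumor crypts and 21.5 to 34.3 elsewhere on its brighter probe set. The sums were 127 to 198 on control, 81.5 to 137 on DSS and 280.3 to 285.6 on tumor arrays. Mesothelium, which has Krt7, gave 0 of 7 genes past the filter, with sums of 60.2 to 64.1, 69.4 to 118 and 136 to 204 in the same order. The part of squamous, hair or mesothelial cells in the keratin values was not tested.

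Of other cell types, 3 of 7 leukocyte genes tested rose in tumor crypts (S100a8 by 6.43 ± 0.88, S100a9 by 5.29 ± 1.02 and Lyz2 by 3.89 ± 0.66), as did 1 of 11 fibroblast genes (Fbln1 by 1.97 ± 0.40). Over all genes, 12.8% were called higher. S100a8 was tested in 16, S100a9 in 15 and Fbln1 in 14 of the 18 alternatives, and Lyz2 in all 18. A gene dim on control and DSS arrays is tested only if bright on both tumor arrays. These counts may therefore partly reflect the filter. The leukocyte genes that did not pass were Tyrobp (1.51), Csf1r (1.42), Cd52 (0.72) and the pan-leukocyte gene Ptprc (-0.03 ± 0.67), and 10 of the 17 on the array were below the filter. The fibroblast median was -0.46, with Lum at -1.43 and Col6a2 at -1.43. Sparc at 1.06, Dcn at 0.86 and Col6a3 at 0.45 went the other way and were not called. These members were chosen after their values were seen. Smooth muscle (0 of 6) and endothelial genes (0 of 2) did not pass, with values of -0.52 for Mylk, -2.06 for Cnn1, 1.25 for Esam and 1.41 for Plvap. Enteric neuron and glia genes (0 of 8) did not pass the filter. Summed fibroblast intensity was 2497 to 4692 on control and 3324 to 5731 on DSS arrays. It was 1430 and 8464 on the 2 tumor arrays, which thus lay on either side of all others. The part of these cell types in the keratin values was not tested.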

How the data were processed

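RNA of 6 crypt pools was labelled with biotin and hybridised to Affymetrix arrays, per the labels' protocols. The deposited intensity values are MAS5 signals, per the submitters' processing notes, whose version is not given in the sources used here. The 2% trimmed mean was near 500.2 on each array. No detection calls were used. Of 22690 probe sets 64 controls were set aside, and 20380 had 1 symbol, updated by gene identifier through the RefSeq table (GRCm38.p6). A pseudocount of 17.8, the 25th percentile of all values, was added before taking log2. The filter kept the 12146 probe sets that exceeded the median of 2 or more arrays, and the brightest per gene was tested (7456 genes) with limma 3.58.1 in R 4.3.3, with 1 mean per group and an intensity trend, 2-sided, over 3 comparisons. The fit was tested on simulated data. All keratins were named. From each list up to 4 called genes per direction were named, or 2 of smallest p where none passed, and any further gene is marked as chosen with its values in view, except Epcam, Trp63, Hoxc13 and Foxn1, which are given as defining genes of their cell types and were also chosen with their values in view. The keratins and lists were chosen with earlier results of these data known. With 2 arrays a group, an exact permutation test could not pass the threshold and the number of arrays limits the precision. Alternatives changed the scaling, pseudocount, filter, probe-set rule, variance model and samples. Figures used Python 3.11.15 and matplotlib 3.10.9.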

Additional observations from a re-analysis of the deposited data

How the results depend on the processing

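Over 18 alternatives, none of the called keratin changes changed sign. Of 462 recomputed keratin changes, 427 stayed within 1 SD of the reported value, the larger SD of the compared groups. Most of these could not do otherwise. Changing the filter, the variance model or the block leaves the change itself as it is. Leaving out 1 of 2 arrays always moves it by less than that SD. The count therefore speaks only to the scaling, the pseudocount and the mean over probe sets. Of all genes, 1099 were called in tumor against control and 1260 in tumor against DSS crypts with the 75th percentile filter, which tests fewer genes, against 1680 and 1950. Keratins called higher in tumor against DSS were then 3 in place of 5. With 1 array left out, genes called ranged from 0 to 2 (DSS against control, 2 without DSS replicate 1), 702 to 1382 (tumor against control) and 903 to 1923 (tumor against DSS), lowest without tumor replicate 2 and without DSS replicate 1. Keratins called higher then ranged from 2 to 6 against control and from 2 to 5 against DSS. The low ends come without a tumor array, where Krt14, Krt36 and Krt84 fail the filter. The labels do not say whether a replicate number marks a shared batch or day. The mean intensity of the poly-A control probe sets was 960 and 417 on control replicates 1 and 2. It was 1443 and 458 on the DSS and 504 and 397 on the tumor arrays, in the same order. Whether this marks a difference in handling was not tested. Deviations of same-numbered arrays from the group mean correlated over genes at 0.45 (control and DSS), 0.08 (control and tumor) and 0.44 (DSS and tumor). With that number as a block in the fit of all 3 groups, calls of the keratins did not change, and 1944 genes were called in tumor against control and 2208 in tumor against DSS crypts. In a fit of 2 groups with the replicate block, added after the data were seen and with 1 residual degree of freedom, genes called were 124 in DSS against control, where Krt14 was called higher (1 keratin) and Krt20 lower (1 keratin). In tumor against DSS crypts 2940.0 genes were called, with 7 keratins higher in place of 5 (Krt18 at 0.34 and Krt20 at 0.41 were added) and 2 lower (Krt8 and Krt19). In tumor against control crypts 1636 genes were called, with 5 keratins higher in place of 6, as Krt18 (0.63) lost its call. Dim probe sets limit the precision for Krt14, Krt36 and Krt84 in control and DSS crypts.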
